A study of Mus musculus with 16 samples.

Results

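Myb, Myc, Meis1 and Mecom, 4 of the 21755 protein-coding genes on chromosomes 1 to 19 and X, were examined for open chromatin in mouse fetal liver progenitors that differ in GATA2 activity. The genes were taken as a named group of self-renewal factors, and every ATAC-Seq peak within 150 kb of the annotated 5' end of each gene was followed. Merging the peaks of 16 libraries gave 94 regions at the 4 genes, out of 90376 regions in all. The window of Myb (ENSMUSG00000019982.15, chr10:21124935-21160984, minus strand of mm10) held 47, that of Meis1 (ENSMUSG00000020160.18, chr11:18879817-19018985, minus strand) 24, that of Myc (ENSMUSG00000022346.15, chr15:61985391-61990374, plus strand) 13 and that of Mecom (ENSMUSG00000027684.16, chr3:29951296-30548008, minus strand) 10.

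ATAC-Seq uses a transposase to insert sequencing adapters into accessible DNA, so that a pile of insertions (a peak) marks an open site. All 16 libraries came from fetal liver progenitors immortalized with a HoxB8 protein regulated by estrogen and cultured with β-estradiol, and all cells were infected for 3 d with a GFP-expressing retrovirus and isolated by FACS. Cells with an intact Gata2 -77 enhancer carried the empty vector (hi-77+/+ empty). Cells without this enhancer on either allele carried the empty vector as well (hi-77-/- empty), GATA2, or a GATA2 variant whose zinc fingers are separated by 9 added amino acids (9aa-Ins). There were 4 libraries in each group. The labels name no separate lines within a genotype, so a difference between genotypes was also a difference between cell lines, and they do not say whether replicates were separate cultures, so that p-values measure the spread between these libraries only.

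GATA2 is a zinc finger factor that binds GATA motifs in DNA and maintains hematopoietic stem and progenitor cells. MYB is a DNA-binding factor required for definitive hematopoiesis that keeps progenitors dividing and immature, and the interval between Myb and its neighbor Hbs1l is known for distal enhancers of Myb. MYC, which acts as a dimer with MAX on E-box DNA, drives growth and division. MEIS1 binds DNA with PBX and HOX proteins, is a partner of HOXA9 in leukemia, and supports stem cell self-renewal. MECOM (EVI1 and its longer form MDS1-EVI1) is a zinc finger factor of long-term stem cells that is also activated in leukemia.

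The libraries were set side by side by taking the 49000 most significant peaks of each. The deposited lists held from 50195 peaks (GATA2 replicate 1) to 112267 (hi-77+/+ empty replicate 2), so that 98.3% to 43.9% of a list was used and the weakest peak used had a -log10 q of 2.87 to 9.34. Peak lists hold no read totals, and the depth of a library is unknown. The labels were checked at Gata2 itself. From 76 to 78 kb upstream of its 5' end, peaks covered 1196 to 1414 bp in hi-77+/+ empty libraries, and 0 bp in 9 of the 12 hi-77-/- libraries; the other 3 were the replicates 4, with 609 bp (empty), 246 bp (GATA2) and 394 bp (9aa-Ins). Results without these 3 libraries are given where they change a call. Coding exons of Gata2, which the vectors also carry, were covered over 0% in hi-77+/+ empty, 7.64% to 8.75% in hi-77-/- empty, 39.0% to 49.0% in GATA2 and 89.9% to 99.6% in 9aa-Ins libraries. The progenitor genes Ptprc, Kit, Spi1, Runx1 and Cd34 had a peak within 1 kb of the 5' end in all 16 libraries and Lmo2 in none. Of 15 genes of other cell types, 11 had no peak there in any library (all 4 hepatocyte genes and both T cell genes among them), Hba-a1 had it in 2, Pecam1 and Col1a1 in 15 each. Cd79a, a B cell gene, had a peak in 1 hi-77+/+ empty, 4 hi-77-/- empty, 0 GATA2 and 4 9aa-Ins libraries. It moved with the groups, and its part in the results was not tested.

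The sequences below are those of regions at Myb and Meis1 that GATA2 opened or closed, together with the pair of constantly open Myb sites that figure in the comparison of genotypes. A region is named by the distance in kb of its center from the 5' end of the gene, positive in the direction of transcription. Each window is 300 bases of mm10 (GRCm38), plus strand, around the median peak summit, in lower case with every GATA motif (the letters AGATAA, with T also allowed first and G also allowed last, on either strand) in capitals.

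The 5 regions opened by GATA2 at Myb had 2, 1, 0, 0 and 1 matches, in the order printed.
Myb +137.5 kb, chr10:21023368-21023667: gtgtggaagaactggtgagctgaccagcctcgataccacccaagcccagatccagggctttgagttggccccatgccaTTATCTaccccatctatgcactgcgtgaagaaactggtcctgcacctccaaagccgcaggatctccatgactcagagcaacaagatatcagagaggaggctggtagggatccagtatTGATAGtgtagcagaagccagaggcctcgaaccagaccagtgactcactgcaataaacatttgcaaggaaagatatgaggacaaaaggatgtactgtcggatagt
Myb +94.4 kb, chr10:21066414-21066713: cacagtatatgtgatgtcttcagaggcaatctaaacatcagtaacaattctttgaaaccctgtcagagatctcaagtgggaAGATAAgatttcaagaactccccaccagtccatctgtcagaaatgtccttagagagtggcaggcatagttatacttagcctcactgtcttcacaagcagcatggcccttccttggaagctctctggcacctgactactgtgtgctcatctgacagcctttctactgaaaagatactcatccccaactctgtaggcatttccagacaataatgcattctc
Myb +75.1 kb, chr10:21085702-21086001: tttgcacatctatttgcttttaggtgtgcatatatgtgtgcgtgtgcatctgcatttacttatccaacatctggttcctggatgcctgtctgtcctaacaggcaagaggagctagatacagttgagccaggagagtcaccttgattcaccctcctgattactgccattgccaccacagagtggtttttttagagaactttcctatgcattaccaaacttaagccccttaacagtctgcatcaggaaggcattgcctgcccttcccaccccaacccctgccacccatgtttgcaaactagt
Myb -27.0 kb, chr10:21187844-21188143: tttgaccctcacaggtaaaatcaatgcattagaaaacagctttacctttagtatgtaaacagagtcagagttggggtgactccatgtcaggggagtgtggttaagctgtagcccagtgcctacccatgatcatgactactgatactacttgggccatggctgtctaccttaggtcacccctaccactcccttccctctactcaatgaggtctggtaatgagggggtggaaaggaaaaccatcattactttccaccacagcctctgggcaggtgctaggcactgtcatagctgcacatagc
Myb -78.7 kb, chr10:21239513-21239812: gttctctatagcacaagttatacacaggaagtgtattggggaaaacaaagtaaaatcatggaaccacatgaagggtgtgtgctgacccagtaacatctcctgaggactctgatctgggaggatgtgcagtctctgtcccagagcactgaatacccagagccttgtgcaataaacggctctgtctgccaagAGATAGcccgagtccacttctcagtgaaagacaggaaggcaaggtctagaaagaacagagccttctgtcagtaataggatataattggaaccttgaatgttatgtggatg

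At Meis1, the region -136.8 kb that GATA2 opened had 3 matches, and the region that it closed, -115.3 kb, had none.
Meis1 -136.8 kb, chr11:19155640-19155939: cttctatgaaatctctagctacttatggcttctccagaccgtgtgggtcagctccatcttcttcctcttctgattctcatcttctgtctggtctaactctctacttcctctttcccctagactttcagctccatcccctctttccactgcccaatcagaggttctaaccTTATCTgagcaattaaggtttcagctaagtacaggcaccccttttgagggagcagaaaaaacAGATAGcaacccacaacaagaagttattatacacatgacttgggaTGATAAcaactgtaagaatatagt
Meis1 -115.3 kb, chr11:19134107-19134406: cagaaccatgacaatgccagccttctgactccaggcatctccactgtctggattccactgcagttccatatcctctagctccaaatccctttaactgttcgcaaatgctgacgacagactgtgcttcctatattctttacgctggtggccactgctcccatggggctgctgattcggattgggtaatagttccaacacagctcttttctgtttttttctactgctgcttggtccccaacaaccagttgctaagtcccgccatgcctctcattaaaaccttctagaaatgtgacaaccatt

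The sites -67.7 and -91.3 kb from Myb had a peak in every library. The former has 3 matches, 1 of them in a composite of an E-box (CANNTG) followed after 7 to 9 bases by a GATA motif, and the latter has none.
Myb -67.7 kb, chr10:21228557-21228856: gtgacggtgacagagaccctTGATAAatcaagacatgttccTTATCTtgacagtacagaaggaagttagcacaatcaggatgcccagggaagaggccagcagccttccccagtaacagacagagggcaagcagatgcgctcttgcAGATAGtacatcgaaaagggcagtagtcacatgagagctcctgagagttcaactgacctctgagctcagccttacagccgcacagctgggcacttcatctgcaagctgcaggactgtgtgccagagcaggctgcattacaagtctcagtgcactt
Myb -91.3 kb, chr10:21252164-21252463: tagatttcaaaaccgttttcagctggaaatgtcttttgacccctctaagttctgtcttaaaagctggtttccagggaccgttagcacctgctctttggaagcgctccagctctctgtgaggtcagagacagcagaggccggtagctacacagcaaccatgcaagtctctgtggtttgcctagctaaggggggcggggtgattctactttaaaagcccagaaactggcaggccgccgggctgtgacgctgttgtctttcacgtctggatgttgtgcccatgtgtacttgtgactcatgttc

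Whether GATA2 or 9aa-Ins changed the number of open sites around the 4 genes was asked first. Among the 49000 strongest peaks of each library, more places around Myb were open with GATA2 than with the empty vector or 9aa-Ins. The number of regions with a peak within 150 kb of Myb was 19, 18, 20 and 16 in the hi-77+/+ empty libraries and 16, 19, 18 and 19 in the hi-77-/- empty libraries. It was 27, 32, 30 and 32 with GATA2 and 21, 19, 19 and 21 with 9aa-Ins. Every GATA2 library was above every library of the other groups. GATA2 raised the mean by 12.2 regions, from 18 ± 1.41 to 30.2 ± 2.36 (SD, n = 4, two-sided exact permutation p = 0.0286, unadjusted, the smallest that 4 against 4 libraries allow). Groups failed to overlap in this comparison in 10.4% of the 20673 gene windows that held a region. A rise as large as at Myb was found in 28 windows (0.135%), that of Myb included, while the median window did not change. Windows of neighboring genes share regions, and the rise is a number of regions, so windows with few regions could not reach it. In ATAC-Seq of a cell population, a site open in more cells and a site more open in each cell cannot be told apart. The GATA2 lists held 50195 to 78185 peaks and the hi-77-/- empty lists 64258 to 74703, and the weakest peak used had a -log10 q of 2.87, 4.66, 3.99 and 4.99 with GATA2 and of 5.66, 5.38, 4.94 and 5.06 in hi-77-/- empty libraries. Limited to peaks with a -log10 q of 5 or more, the rise was 7.5 (exact permutation p = 0.0286), and with all deposited peaks 12.8 (exact permutation p = 0.0571). Without the 3 hi-77-/- replicates 4, which had peaks at the deleted site, it was 12 with no overlap (exact permutation p = 0.1, the smallest that 3 against 3 libraries allow).

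Against hi-77-/- empty, 9aa-Ins libraries had 2 more open regions at Myb on average, which did not pass the test (exact permutation p = 0.171). In this comparison 5.51% of gene windows had no overlap. The size of the difference depended on the peaks taken. It was 1.5 in the top 25000 (exact permutation p = 0.0857), where GATA2 gave 4.75. It was 6.75 from a -log10 q of 5 upward (exact permutation p = 0.0857), where GATA2 gave 7.5. The uncut lists gave 16.2 for 9aa-Ins (exact permutation p = 0.0571) and 12.8 for GATA2. None of these 9aa-Ins differences passed the test, but in the uncut lists a rise at Myb was not particular to GATA2. 9aa-Ins libraries had 10.2 fewer open regions at Myb than GATA2 libraries by the mean, a difference of -10.2 without overlap (exact permutation p = 0.0286), as in 12.9% of windows. This contrast differed between settings. It was -3.25 in the top 25000 peaks (exact permutation p = 0.0571), -0.750 with a -log10 q of 5 or more (exact permutation p = 0.771), and with all deposited peaks the 9aa-Ins libraries had 49, 46, 38 and 27 open regions against 27, 42, 30 and 47 with GATA2, a difference of 3.5 (exact permutation p = 0.686). With all peaks, the 9aa-Ins and GATA2 libraries overlapped. Among the 49000 peaks and without the 3 hi-77-/- replicates 4, the difference was -10.0 (exact permutation p = 0.1, again the smallest possible).

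**Figure D1:**
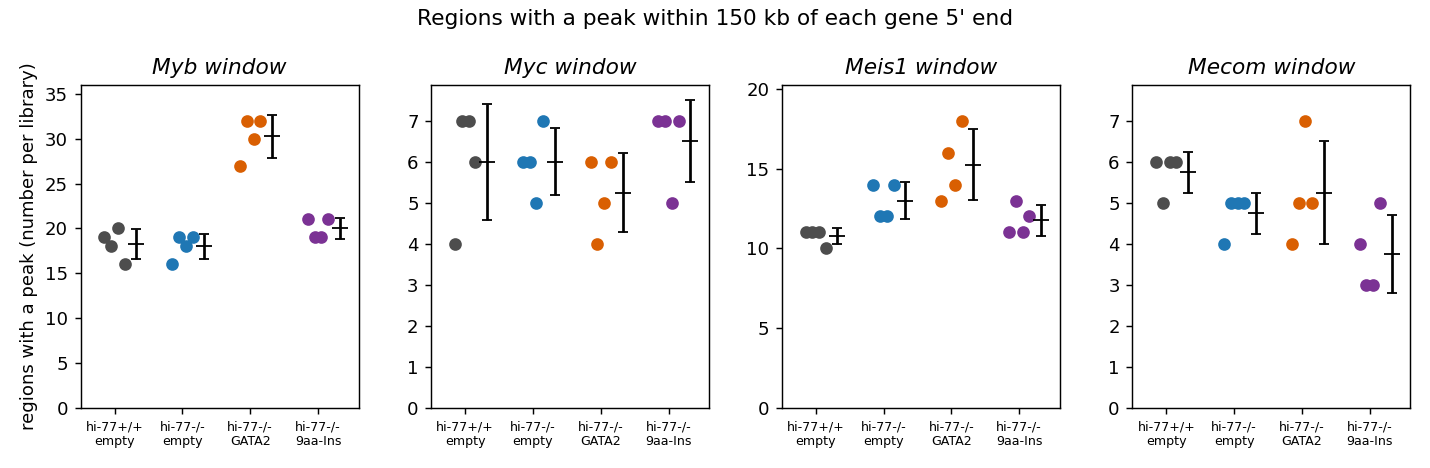
Number of regions with a peak (y axis, linear, from 0, with its own scale in each panel) within 150 kb of the 5' end of Myb, Myc, Meis1 and Mecom. Each point is a library, black bars are the mean ± SD (n = 4) of a group, and the 4 GATA2 libraries at Myb sit between 27 and 32, above all others (16 to 21).

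At Meis1 the counts were 11, 11, 11 and 10 in hi-77+/+ empty, 14, 12, 12 and 14 in hi-77-/- empty, 13, 16, 14 and 18 in GATA2, and 11, 13, 11 and 12 in 9aa-Ins libraries. The -77 deletion raised the count by 2.25 (exact permutation p = 0.0286), without overlap, which held for 23.9% of gene windows in this comparison, so such a difference was common among genes. Without any 1 of the hi-77+/+ empty libraries it was 2 to 2.33 and missed the threshold (exact permutation p = 0.0857). With all deposited peaks the sign turned (a difference of -5.50, exact permutation p = 0.0286). GATA2 differed from hi-77-/- empty by 2.25 at Meis1 (exact permutation p = 0.171) and 9aa-Ins from GATA2 by -3.5 (exact permutation p = 0.0571), neither past the threshold. Without GATA2 replicate 1 the latter was -4.25 (exact permutation p = 0.0286).

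No difference at Myc or Mecom passed the test. At Myc the counts ran from 4 to 7 in hi-77+/+ empty, 5 to 7 in hi-77-/- empty, 4 to 6 in GATA2 and 5 to 7 in 9aa-Ins libraries, and the smallest of the 4 exact permutation p was 0.200. At Mecom they ran from 5 to 6, 4 to 5, 4 to 7 and 3 to 5 in the same order, and the smallest exact permutation p was 0.114 (-1 for the deletion, or -1.25 with p = 0.0286 without hi-77+/+ empty replicate 2). The order of the group means at Mecom was hi-77+/+ empty (5.75), GATA2 (5.25), hi-77-/- empty (4.75) and 9aa-Ins (3.75), and neighbors in that order overlapped. In all, 16 such tests were made, 4 for each gene, and those of a gene share the hi-77-/- empty or the GATA2 libraries.

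The Myb window holds 3 promoter regions (within 3 kb of the annotated 5' end of a protein-coding gene), 3 in coding exons, 19 in introns and 22 between genes. Of the 47, 32 are nearest to Myb, 9 to Hbs1l and 6 to Ahi1, the downstream neighbor. A peak was present in all 16 libraries at 10 regions (21.3%, against 23.5% of all regions) and in 1 library at 10 (21.3%, against 21.1%). Many regions had a peak in GATA2 libraries only. There were 16 of these at Myb (34.0%), 6 at Meis1 (25.0%), 1 at Myc and 1 at Mecom, against 9.22% of all regions. Of the 16 at Myb, 9 had a peak in a single library, 4 in 2, 2 in 3 and 1 in 4, so most were not shared by all replicates. In the full lists some of the 16 also had peaks in other groups, such as +104.0 kb (2 hi-77+/+ empty, 1 hi-77-/- empty and 1 9aa-Ins libraries). Others, such as +5.8 kb, did not. The weakest peak used had a -log10 q of 2.87 to 4.99 with GATA2 and 4.94 to 5.66 in hi-77-/- empty libraries. It was 5.88 to 7.15 in hi-77+/+ empty and 6.39 to 9.34 in 9aa-Ins libraries. Regions limited to hi-77+/+ empty libraries numbered 1 at Myb, where 13.1% of all regions were of that kind, and those limited to 9aa-Ins libraries numbered 1 (5.24% of all regions).

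**Figure D2:**
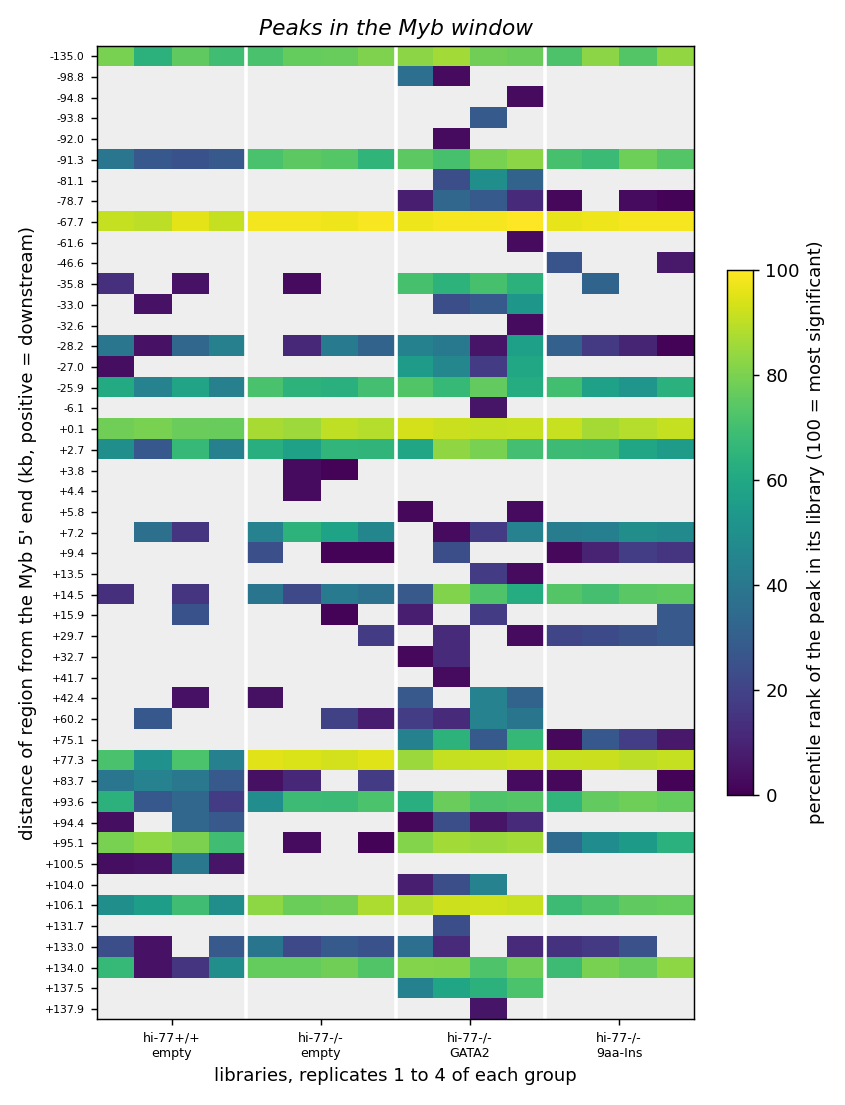
Peaks in the Myb window. Each row is a region at its distance in kb from the Myb 5' end (y axis), each column a library (x axis, replicates 1 to 4 of each group), the color is the percentile rank of the peak in its library (100 is the most significant) and gray means no peak among the 49000. The GATA2 columns carry 16 rows that are gray everywhere else. Of the 10 rows filled across all columns, 8 were called higher in hi-77-/- empty than in hi-77+/+ empty libraries by limma, as given below.

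Regions that changed completely were next identified. A region was called opened when all 4 libraries of the first group and none of the second had a peak, and closed in the reverse case. GATA2 opened 7 of the 94 regions relative to hi-77-/- empty (5 at Myb and 2 at Meis1), or 7.45%, against 1.72% of all regions. It closed 1 (1.06%), at Meis1, against 2.26%. At Myc and Mecom it opened and closed none. For these regions the percentile rank of the peak within its library is given, where 100 is the most significant of the 49000 peaks, and peaks of equal significance share their mean rank.

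The strongest of the Myb regions was +137.5 kb (chr10:21023296-21023670), in an intron of Ahi1 and 71.0 kb from the Ahi1 5' end. Its percentiles were 43.8, 58.6, 64.2 and 71.8 with GATA2, and the other 12 libraries had no peak there among the 49000. In the full lists 2 hi-77+/+ empty libraries had one. The region -27.0 kb (chr10:21187926-21188167), between Myb and Hbs1l within the noncoding transcripts Gm40608 and Gm33619, had percentiles of 54.8, 46.3, 17.3 and 59.4 with GATA2. Among the other groups it had a peak in hi-77+/+ empty replicate 1 alone, at percentile 3.85. The call was lost in the full lists, where 2 libraries of each other group had a peak. The region +94.4 kb (chr10:21066327-21066645), in an Ahi1 intron, ranked low with GATA2 at 2.09, 24.1, 5.56 and 12.2. Of the hi-77+/+ empty libraries 3 also had it, at 3.85, 33.2 and 28.0, and it was found in no hi-77-/- empty or 9aa-Ins library. Here the GATA2 and hi-77+/+ empty libraries were alike in having peaks, and their percentiles overlapped.

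Both GATA2 and 9aa-Ins had peaks at 2 of the regions opened by GATA2. The region +75.1 kb (chr10:21085721-21086042), between Myb and Ahi1, had percentiles of 43.8, 64.5, 28.5 and 66.5 with GATA2 and 2.01, 27.7, 18.3 and 6.79 with 9aa-Ins, and no peak in the 8 empty-vector libraries. All 9aa-Ins values lay below all GATA2 values. The region -78.7 kb (chr10:21239581-21239777), within Gm33728 and nearest to Hbs1l, had 8.52, 33.2, 28.5 and 12.2 with GATA2. It had 2.01, 3.07 and 1.12 in 3 of the 4 9aa-Ins libraries, and no peak in the empty-vector libraries. +75.1 kb was the only region at the 4 genes that 9aa-Ins opened, 1 of 94 (1.06%) against 1.39% of all regions, and 9aa-Ins closed none of the 94, against 0.159%. In the full lists hi-77-/- empty also had a peak at +75.1 kb in 1 of 4 libraries. Without hi-77-/- empty replicate 4, or without all 3 hi-77-/- replicates 4, the number of regions that 9aa-Ins changed was 3, and without 9aa-Ins replicate 2 it was 2. With fewer libraries the rule is easier to meet, so such counts can rise but not fall.

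At Meis1, GATA2 opened +61.6 kb, in an intron of the gene, at percentiles of 43.8, 51.1, 37.5 and 59.4. It also opened -136.8 kb (chr11:19155667-19155903), in the intergenic interval upstream, at 8.52, 24.1, 37.5 and 44.4. Neither had a peak in any of the other 12 libraries among the 49000 peaks, and in the full lists hi-77+/+ empty had them in 2 and 1 libraries and 9aa-Ins in none. The region -115.3 kb (chr11:19134136-19134401) had the reverse pattern. It had no peak in hi-77+/+ empty or GATA2 libraries, percentiles of 53.2, 36.5, 19.6 and 45.8 in hi-77-/- empty and 35, 32.2, 35.3 and 37.1 in 9aa-Ins libraries. In the full lists 1 hi-77+/+ empty library also had a peak, which ends the call for the deletion. Among the 49000 peaks it was called in 3 comparisons, which share libraries: opened with the deletion, closed by GATA2, and open with 9aa-Ins where closed with GATA2. The B cell gene Cd79a had a peak in the same 8 libraries and in 1 hi-77+/+ empty library, and the part of B cell chromatin in this result was not tested.

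9aa-Ins libraries lacked 6 regions that were open with GATA2 (6.38% of 94, against 1.46% of all regions) and had 2 that were closed with GATA2 (2.13%, against 2.96%). The 6 were +137.5, +94.4, +60.2 and -27.0 kb at Myb and +61.6 and -136.8 kb at Meis1. At +60.2 kb of Myb (chr10:21100690-21100929), within the noncoding Gm48189, percentiles were 18.1, 12.3, 44.3 and 38.8 with GATA2. There hi-77-/- empty replicates 3 and 4 had 19.6 and 7.53, hi-77+/+ empty replicate 2 had 27.7 and 9aa-Ins had no peak. In the full lists 3 of the 4 9aa-Ins libraries had one, and the call was lost. The regions present with 9aa-Ins and not with GATA2 were -115.3 kb of Meis1 and +6.9 kb of Myc (chr15:61991787-61992644), just beyond the Myc 3' end. The latter had percentiles of 14.8, 22.6, 10.4 and 15 with 9aa-Ins, and a peak in 2 of 4 libraries of each empty-vector group. Of the 8 calls between 9aa-Ins and GATA2, 4 stood in the full lists, as did 6 of the 8 between GATA2 and hi-77-/- empty. In the full lists Myb -78.7 kb also had a peak in 1 hi-77+/+ empty library, Myb +94.4 and +100.5 kb in 1 9aa-Ins library each, and Myc +6.9 kb in 2 GATA2 libraries.

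The -77 deletion opened 2 of the 94 regions (2.13%, against 3.59% of all) and closed 1 (1.06%, against 2.10%), both shares below those of all regions. Those opened were -115.3 kb and +133.2 kb of Meis1. The latter (chr11:18885685-18886080), in an intron near the 3' end of the gene, had percentiles of 53.2, 21.9, 28.3 and 25.1 in hi-77-/- empty, no peak in hi-77+/+ empty, and peaks in 2 GATA2 and 3 9aa-Ins libraries. The closed region was +100.5 kb of Myb (chr10:21060356-21060615), in an Ahi1 intron, with percentiles of 3.85, 4.73, 39.9 and 5.74 in hi-77+/+ empty and no peak in any of the 12 hi-77-/- libraries. Its weak peaks were not regained with GATA2 or 9aa-Ins. A stronger site nearby was +95.1 kb (chr10:21065565-21066165, chosen after its values were seen). It had percentiles of 80.0, 83.0, 80.4 and 69.2 in hi-77+/+ empty, peaks in 2 hi-77-/- empty libraries at 2.81 and 1.01, 81.3, 86.3, 84.9 and 86.1 with GATA2, and 35, 48.7, 54.4 and 63.9 with 9aa-Ins. GATA2 libraries were in or above the hi-77+/+ empty range there and 9aa-Ins libraries below it. The presence rule does not call it, since 2 hi-77-/- empty libraries had a peak.

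**Figure D3:**
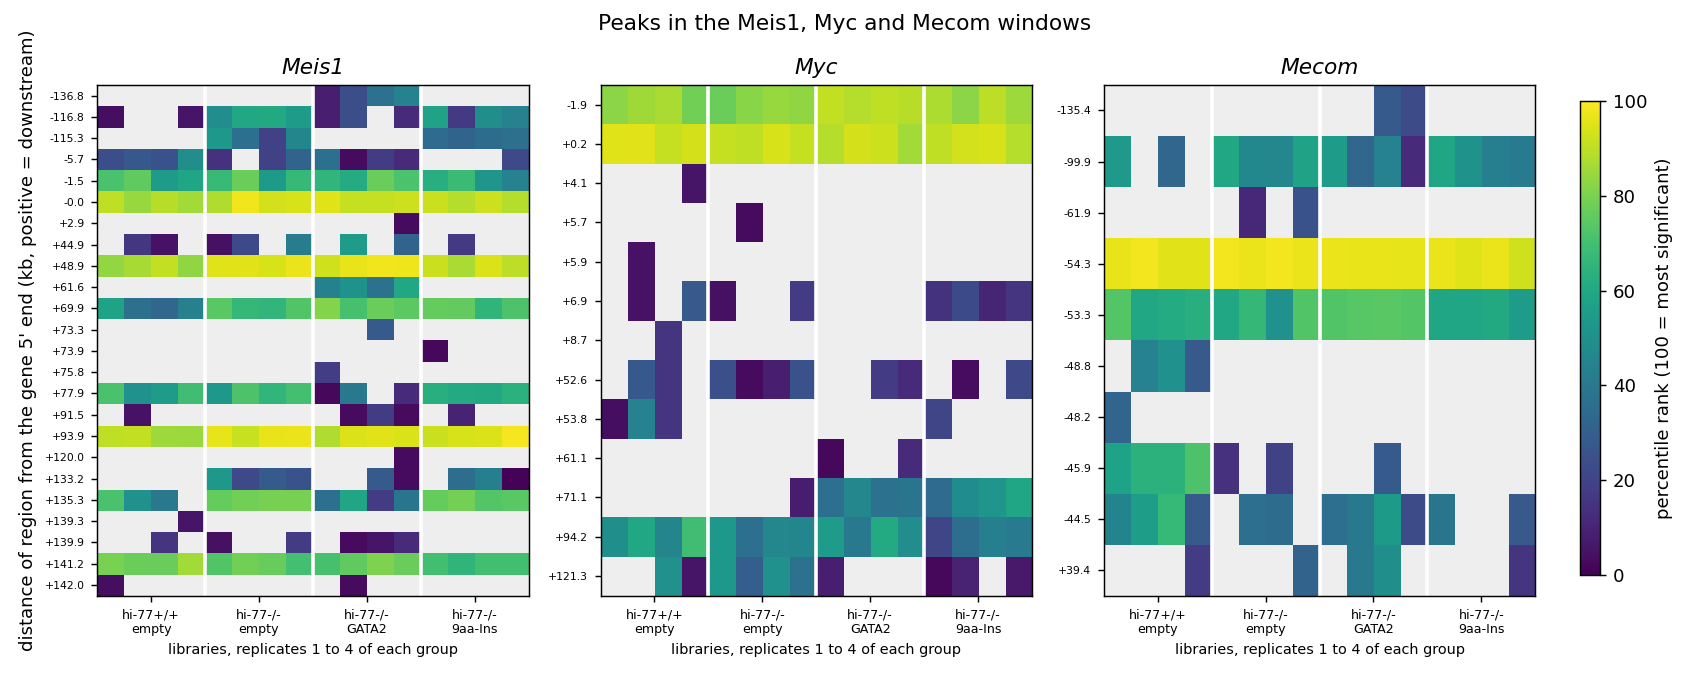
Peaks in the Meis1, Myc and Mecom windows, drawn with regions by distance from the gene 5' end in kb (y axis), libraries of the 4 groups (x axis) and the percentile rank of the peak as color (gray, no peak). At Meis1 the rows at +61.6 and -136.8 kb are filled in GATA2 libraries only, and the row at -115.3 kb in hi-77-/- empty and 9aa-Ins libraries only.

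To ask whether constantly open sites changed in strength, the percentile ranks of the 21231 regions with a peak in all 16 libraries were compared with limma. At the 4 genes 21 regions qualified, 10 at Myb, 6 at Meis1, 3 at Myc and 2 at Mecom. Of the 16 at Myb and Meis1, limma called 12 higher in hi-77-/- empty than in hi-77+/+ empty libraries. The deletion comparison called 12 of the 21 higher and none lower (limma, Benjamini-Hochberg adjusted p under 0.05; 13 and 0 at an unadjusted p under 0.05), against 21.7% of all such regions higher and 17.9% lower. Of the 12, 8 were at Myb and 4 at Meis1, with none at Myc or Mecom. The median difference was 20.6 percentile points over the 10 Myb regions and 6.57 over the 6 Meis1 regions, against 0.105 over all regions.

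The Myb site at -91.3 kb (chr10:21251856-21252630), in Gm33728 between Hbs1l and Myb, had percentiles of 39.4, 27.7, 25.2 and 28.0 in hi-77+/+ empty and 71.2, 74.9, 73.7 and 65.4 in hi-77-/- empty libraries. The groups were far apart, by 41.2 ± 4.35 percentile points (SE, limma adjusted p = 2.44e-06). GATA2 (74.9, 70.9, 79.7 and 82.6) and 9aa-Ins libraries (70.9, 68.1, 77.8 and 73.2) also lay above all hi-77+/+ empty libraries. The site at +77.3 kb (chr10:21082985-21084219) had 71.4, 50.4, 71.7 and 43.6 in hi-77+/+ empty and 95.7, 94.4, 93.2 and 95 in hi-77-/- empty libraries, a difference of 35.3 ± 4.54 (SE, limma adjusted p = 1.56e-05). The Myb promoter (+0.1 kb, chr10:21159586-21161978) rose from 78 ± 1.34 to 87.9 ± 2.16 (SD, n = 4), a difference of 9.86 (limma adjusted p = 0.000134), and its groups did not overlap (76.7 to 79.7 and 85.3 to 90.3). It was at 92 ± 1 with GATA2 and 89.5 ± 2.27 with 9aa-Ins (SD, n = 4). The site of highest rank in the window, -67.7 kb (chr10:21228252-21229025), rose from 92.1 ± 2.56 to 98.2 ± 0.687 (SD, n = 4, limma adjusted p = 0.000119).

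The other Myb sites that rose with the deletion were +134.0 kb (by 41.8, adjusted p = 0.00162), +93.6 kb (by 28.7, adjusted p = 0.00652), +106.1 kb (by 25.4, adjusted p = 0.000110) and -25.9 kb (by 15.4, adjusted p = 0.0249), all by limma. Within hi-77+/+ empty libraries +134.0 kb was uneven, from 4.73 in replicate 2 to 66.9 in replicate 1, and the latter was still below the lowest hi-77-/- empty value of 72.8. The Myb site at +2.7 kb (15.8, adjusted p = 0.0765) and the Hbs1l promoter at -135.0 kb (4.01, adjusted p = 0.429) did not pass the limma threshold. The rise was not shared by the whole chromosome. Over the 1140 constantly open regions of chromosome 10 the median difference was -0.153, and over the 71 regions lying outside the window but within 3 Mb of Myb it was 4.29.

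At Meis1 the promoter (chr11:19018561-19019284, at the gene 5' end) had percentiles of 90.4, 84.4, 89.2 and 86.0 in hi-77+/+ empty and 88.0, 97.7, 93.2 and 94.1 in hi-77-/- empty libraries. The groups overlapped, with a mean difference of 5.74 (limma adjusted p = 0.0166). The 3 intronic sites differed more clearly. At +69.9 kb (chr11:18948687-18949481) the mean rose from 42.9 ± 11 to 70.0 ± 4.36 (SD, n = 4, limma adjusted p = 0.000405). At +48.9 kb it rose from 86.3 ± 3.34 to 95.4 ± 1.36 (adjusted p = 0.000405) and at +93.9 kb from 87.9 ± 3.26 to 95.3 ± 2.47 (adjusted p = 0.00404, SD, n = 4 and limma for each). The site at +141.2 kb, beyond the 3' end, had a difference of -5.57 (limma adjusted p = 0.179) and the site at -1.5 kb of 1.46 (limma adjusted p = 0.874). The median difference over chromosome 11 was 3.23 (1786 regions) and over the 36 regions lying outside the window within 3 Mb it was -1.07.

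Few of these sites passed the test for GATA2 or 9aa-Ins. GATA2 against hi-77-/- empty called 1 of the 21 higher and none lower, against 4.96% and 8.38% of all regions, and 4 were higher and 0 lower at an unadjusted p under 0.05. It was the site 1.9 kb upstream of Myc (chr15:61983069-61983941), with percentiles of 77.7, 82.4, 84.6 and 83.4 in hi-77-/- empty and 90.7, 88.9, 90.4 and 89.1 with GATA2, apart by 7.76 ± 2.17 (SE, limma adjusted p = 0.0219). The hi-77+/+ empty libraries had 82.7, 85.8, 87.4 and 78.7 there, below all GATA2 libraries. The call was lost without hi-77-/- empty replicate 1, GATA2 replicate 1 or GATA2 replicate 3, and without the 3 hi-77-/- replicates 4 together. The Myc promoter itself (+0.2 kb, chr15:61984147-61988435) was among the highest ranking regions in every group, at 86.1 to 95.6, and differed by -1.48 with GATA2 (limma adjusted p = 0.602) and -2.14 with the deletion (adjusted p = 0.289).

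9aa-Ins against hi-77-/- empty gave 0 calls among the 21 (limma), where 0.796% of all regions were higher and 0.857% lower, and 3 of the 21, all lower with 9aa-Ins, had an unadjusted p under 0.05. With ranks fitted to the 8 libraries of that comparison alone, limma made 2 calls. Between 9aa-Ins and GATA2, 3 of the 21 ranked lower with 9aa-Ins and none higher, against 6.04% lower and 8.98% higher over all regions. These were Myb +106.1 kb (chr10:21054532-21055705, in a coding exon of Ahi1) at 73.1 ± 3.65 with 9aa-Ins and 91.3 ± 2.16 with GATA2 (limma adjusted p = 0.00415), Mecom -53.3 kb at 58.5 ± 2.50 and 73.7 ± 0.643 (adjusted p = 0.0297), and Meis1 +48.9 kb at 91.1 ± 3.13 and 96.2 ± 2.30 (adjusted p = 0.0474, SD, n = 4 and limma for each). At Myb +106.1 kb the 4 9aa-Ins libraries (68.4 to 76.3) lay below the 4 GATA2 libraries (88.1 to 92.8). Leaving out any 1 of the 8 libraries left 1 or 2 calls. It left 1 without GATA2 replicate 2, 3 or 4 or 9aa-Ins replicate 1, 2 or 4, and also without the 3 hi-77-/- replicates 4.

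**Figure D4:**
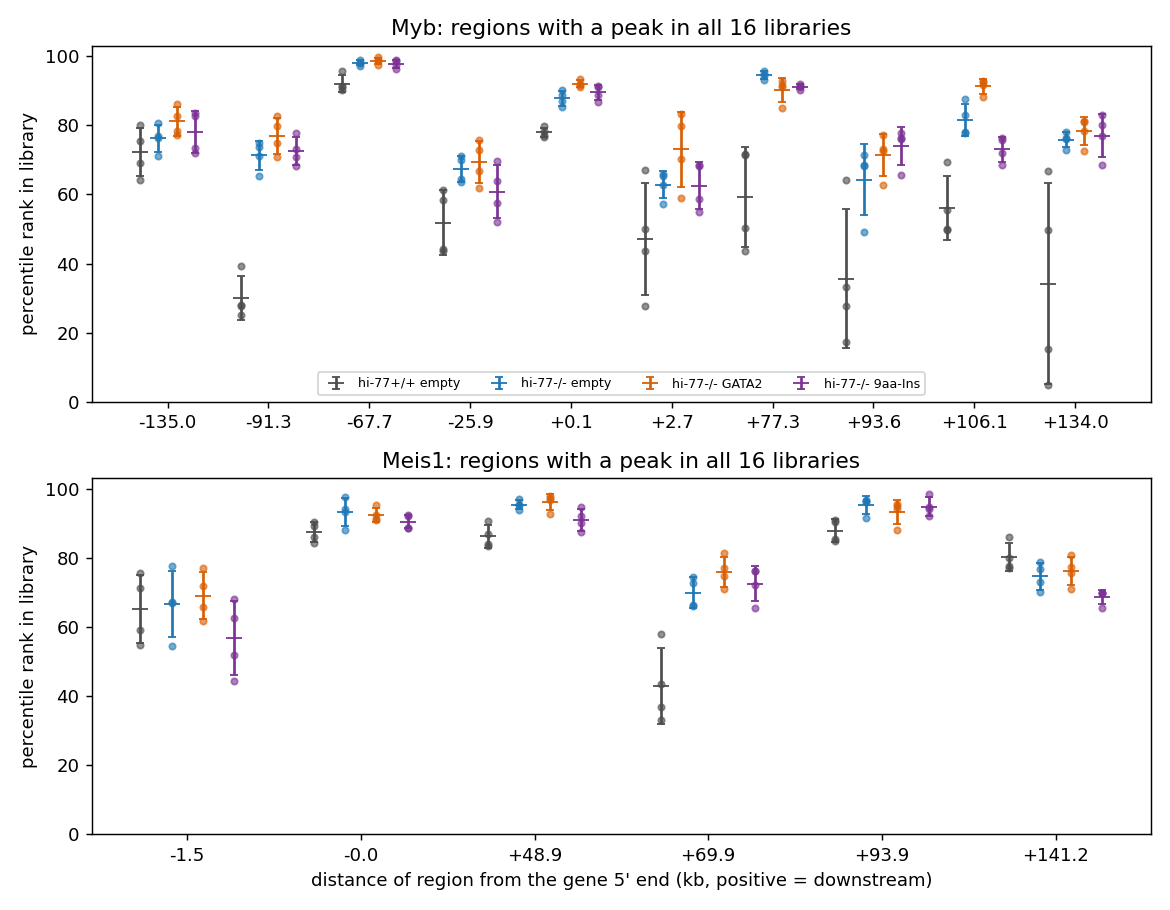
Percentile rank in its library (y axis, 0 to 100) of every region with a peak in all 16 libraries at Myb (top, 10 regions) and Meis1 (bottom, 6 regions), by distance from the gene 5' end in kb (x axis). Points are libraries and bars the mean ± SD (n = 4) of a group. At Myb -91.3 kb the hi-77+/+ empty libraries (25.2 to 39.4) lie below the 12 others (65.4 to 82.6).

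Within 150 kb of its 5' end, Myc had few open sites apart from its promoter, and sites farther away were not examined. The 13 regions comprise 2 promoter regions, 1 in a coding exon and 10 between genes, of which 6 lie in the noncoding gene Pvt1. The site at +94.2 kb (chr15:62079372-62079917), in Pvt1, had a peak in every library at percentiles from 20.9 to 69.2. At +71.1 kb (chr15:62056306-62056752, chosen after its values were seen) there was no peak in hi-77+/+ empty libraries and 1 in hi-77-/- empty, at 7.53. It had percentiles of 36.7, 46.3, 37.5 and 38.8 with GATA2 and 35, 48.7, 52.0 and 58.9 with 9aa-Ins, and the ranks of the 2 groups overlapped. It is not called by the presence rule because of the 1 hi-77-/- empty peak. Over the chromosome 15 regions outside the Myc window but within 3 Mb (48 regions) the deletion difference had a median of 9.69, while the 3 Myc regions had a median of -2.14.

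The Mecom window reached 150 kb to either side of chr3:30548008, while the gene extends to chr3:29951296. The counts therefore do not cover the rest of the gene. Protein-coding Mecom transcripts that start between chr3:29997663 and chr3:30238319 begin outside the window. Among the 49000 peaks of each library, the window showed almost no open chromatin of Mecom itself. Only 1 of its 10 regions is nearest to Mecom, in an intron at +39.4 kb (chr3:30508341-30508849) and within 1 kb of the starts of 3 protein-coding Mecom transcripts. It had a peak in 1 hi-77+/+ empty, 1 hi-77-/- empty, 2 GATA2 and 1 9aa-Ins libraries, at percentiles of 17.4, 31.7, 40.5, 49.8 and 15. In the full lists it had a peak in 4, 4, 3 and 4 libraries, so it was open but weak in nearly all. Among the 49000 peaks, no other annotated start of a protein-coding Mecom transcript had a peak within 1 kb in any library. The RefSeq promoter windows of Mecom (300 bases around a start) overlapped such a peak in 0 of 16 libraries. Those of Myb and Meis1 did so in 16. Whether the full lists hold peaks at these other Mecom starts was not tested. The 9 other regions are nearest to Actrt3 (4), Mynn (3), Lrrc31 and Lrrc34, and both constantly open ones are at Mynn, among them Mecom -53.3 kb (chr3:30600805-30601594), 0.7 kb upstream of its 5' end. The site at -45.9 kb, 6.0 kb from the Actrt3 5' end and chosen after its values were seen, had percentiles of 58.0, 64.1, 64.4 and 71.9 in hi-77+/+ empty. It had a peak in 2 hi-77-/- empty libraries (14.3 and 19.6), 1 GATA2 library (28.5) and no 9aa-Ins library.

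Motifs were counted in the 300 bases around each region's median summit, on both strands. A GATA motif was present in 27 of the 47 Myb regions (57.4%), 12 of 24 at Meis1, 3 of 13 at Myc (23.1%) and 4 of 10 at Mecom (40.0%), against 36.7% of all regions. Of the 7 regions opened by GATA2 at the 4 genes, 5 held it (71.4%), against 84.1% of the 1558 regions opened by GATA2 in all. The 2 without it were Myb +75.1 and -27.0 kb, whose sequences are printed above. Of the 16 Myb regions with a peak in GATA2 libraries only, 11 held a GATA motif (68.8%, against 63.5% of all such regions). An E-box (CANNTG) was in 44 of the 47 Myb regions (93.6%, against 79.5%) and the composite of E-box and GATA motif in 1 region at each gene, the Myb site being -67.7 kb, against 1.21% of all regions. At Meis1 the composite was in -136.8 kb, which GATA2 opened. The RUNX motif TGTGGT was in 14 Myb regions (29.8%, against 30.7%), and the ETS motif AGGAAG in 22 (46.8%, against 47.6%). The HOX-MEIS-PBX motif TGATTNAT was in 2 Myb and 2 Meis1 regions, against 3.5% of all. A match is only a string of letters and does not show that a factor binds. The RefSeq promoters of Myb and Meis1 held no GATA motif and both Mecom windows 1 each, and that of Myb was 75.0% G or C (median 52.7% over 32851 promoters, of which 29.8% held a GATA motif).

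The genes whose number of open regions varied most like that of Myb over the 16 libraries were Arf4, Pde12 and Dnah12, 3 neighbors on chromosome 14 with overlapping windows (Pearson r = 0.961, 0.959 and 0.959, a description over libraries that fall in 4 groups). For Meis1 they were Capsl (r = 0.878), Tgtp1 (r = 0.867) and Il7r (r = 0.858), for Myc Ptp4a2, Rpap1 and Tyro3 (r = 0.769 to 0.787) and for Mecom Usp6nl, Lig4 and Abhd13 (r = 0.771 to 0.783).

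Relatives and partners of the 4 factors were counted in the same way. At the MYB relatives Mybl1 and Mybl2 and the coactivators Crebbp and Ep300, GATA2 opened 2 of 75 regions and closed 2 (2.67% each), and the deletion opened none and closed 5 (6.67%). In the MYC-MAX network (10 genes, 314 regions) GATA2 opened 7 (2.23%) and closed 5 (1.59%), and 3 of those opened were at Max, the dimer partner of MYC. Among MEIS1 relatives and partners (8 genes, 154 regions) GATA2 opened 1 (0.649%) and closed 3 (1.95%), 2 of them at Pbx2. Hoxa9, the HOX partner of MEIS1, had 2 to 3 open regions in hi-77+/+ empty, 5 to 8 in hi-77-/- empty, 2 to 5 in GATA2 and 3 to 5 in 9aa-Ins libraries. Among relatives of MECOM and other stem cell genes (8 genes, 155 regions) GATA2 opened 4 (2.58%), 2 of them at Mllt3, and closed 6 (3.87%). Mllt3 had 4 to 5 open regions in hi-77+/+ empty, 5 to 7 in hi-77-/- empty, 8 to 11 in GATA2 and 6 to 7 in 9aa-Ins libraries. There the GATA2 libraries did not overlap the others (10.4% of gene windows did not overlap between GATA2 and hi-77-/- empty). In that comparison 1 gene of this list was higher without overlap and 3 were lower. Those lower with GATA2 than in hi-77-/- empty were Ctbp1 (7, and 8 to 9), Bmi1 (13 to 15, and 17 to 18) and Sox4 (10 to 12, and 13 to 17). 9aa-Ins opened 1, 3, 1 and 1 regions of the 4 lists in turn and closed 0, 1, 0 and 0. Over all regions, GATA2 opened 1.72% and closed 2.26%, the deletion 3.59% and 2.10%, and 9aa-Ins 1.39% and 0.159%. No list was tested.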

How the data were processed

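ATAC-Seq was measured in 16 libraries, 4 per group, taken from the labels. According to the study's methods and processing notes, the authors trimmed reads with Trim Galore 0.4.1 and aligned them to mm10 with Bowtie2 2.2.5. They removed duplicates with Picard 2.26.0, kept unique reads, offset them by the transposase shift and ran MACS2 on every library. The study's methods describe MACS2 without a local background for the hi-77-/- groups and do not name hi-77+/+ empty there. The deposited peak lists give a score, a fold enrichment (a ratio), -log10 p and -log10 q values and the summit offset (a score in bp) for each peak. They hold no read totals, so depth is unknown and no counting intervals are given. The number of libraries limits the precision.

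Here the 49000 peaks of highest -log10 p on chromosomes 1 to 19 and X were taken from each library (ties by fold enrichment, then position). Peaks sharing 1 bp or more were joined into regions, assigned to genes within 150 kb of a GENCODE M21 5' end (GRCm38). Opened and closed regions (4 of 4 against 0 of 4 libraries) have no p. Region counts per window were compared by a two-sided exact permutation test (smallest p 0.0286), unadjusted over 16 tests. Percentile ranks of regions with a peak in all 16 libraries were compared by limma 3.58.1 in R 4.3.3 across all groups with Benjamini-Hochberg adjustment over 21231 regions. The code was tested on simulated data. Python 3.11.15 with numpy 2.4.6, pandas 2.3.3 and matplotlib 3.10.9 was used.

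Regions named are the one nearest each 5' end, every called region and, added after their values were seen, the other regions with a peak in all libraries, and genes named are the 3 most alike in their counts and those of the 4 lists of relatives. Further regions are marked as chosen after their values were seen. The genes, lists and tests were chosen with earlier results of these data known. The comparisons share the hi-77-/- empty or GATA2 libraries. Alternatives were all deposited peaks, the top 25000, a -log10 q of 5 or more, peaks up to 1 kb wide, 50% cover, normal scores, fits of 8 libraries, a replicate block and each library left out. Centering ranks on each chromosome and leaving out the 3 hi-77-/- replicates 4 together were added after seeing the data. The libraries were not treated as paired by replicate number, and the labels do not say whether those of the same number were handled together. A marker gene and a region's sequence are not reported here.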

Additional observations from a re-analysis of the deposited data

Results flagged for a closer look

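In 4 of the 28 groups of 4 libraries examined, 1 library stood apart from 3 that were closer together (ratio of gap to range 1, above the 95% critical value of Dixon). The critical value assumes continuous values, and the ratio is 1 whenever 3 of 4 counts tie and 1 differs. The number flagged can therefore not be set against a rate by chance. All 4 are region counts in which the 3 other libraries tied. These were Myc with 9aa-Ins (7, 7, 5 and 7 regions), Meis1 in hi-77+/+ empty (11, 11, 11 and 10), Mecom in hi-77+/+ empty (6, 5, 6 and 6) and Mecom in hi-77-/- empty (4, 5, 5 and 5). The library that stood apart differed from its group by 1 or 2 regions.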

How the results depend on the processing

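Which results held was examined under each alternative. The rise at Myb with GATA2 was 4.75 in the top 25000 peaks, 7.5 at a -log10 q of 5 or more, 12.5 with peaks up to 1 kb wide and 11.6 to 13.3 with any library left out (exact permutation p = 0.0286 for each), and 12.8 with all peaks (exact permutation p = 0.0571). The fewer regions with 9aa-Ins than with GATA2 at Myb held with any library left out (-11.3 to -9.67) and was -3.25 in the top 25000 (exact permutation p = 0.0571), -0.750 at a -log10 q of 5 or more (exact permutation p = 0.771) and 3.5 with all peaks (exact permutation p = 0.686). The causes were not tested. Depth is unknown and the lists differ in length, which limits all counts of regions.

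With all peaks, the deletion differences were -3.75 at Myc, -5.50 at Meis1 and -3.25 at Mecom and the 9aa-Ins difference was 5.00 at Myc (exact permutation p = 0.0286 for each). Also with all peaks, GATA2 gave -0.5 at Mecom, 9aa-Ins 2.50 at Meis1 and 1.5 at Mecom, and 9aa-Ins against GATA2 0.750 at Meis1 and 2.00 at Mecom. In the top 25000, the deletion gave 3.00 at Myb (exact permutation p = 0.0857), GATA2 -2.50 at Meis1 and 9aa-Ins against GATA2 1.25 at Meis1. At a -log10 q of 5 or more, GATA2 gave -1 at Meis1, 9aa-Ins 1 at Meis1 and 0.750 at Mecom, and 9aa-Ins against GATA2 3.5 at Myc (exact permutation p = 0.0286), 2.00 at Meis1 and 0.5 at Mecom. With peaks up to 1 kb wide, 9aa-Ins gave -0.750 at Myc and 0.250 at Mecom, and 9aa-Ins against GATA2 -0.5 at Myc and -2.75 at Meis1 (exact permutation p = 0.0286).

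The regions opened or closed numbered 5 for the deletion at 50% cover, 4 for GATA2 in the top 25000 and 5 at 50% cover, 3 for 9aa-Ins with all peaks and 2 at 50% cover, and 2 for 9aa-Ins against GATA2 in the top 25000 and 5 at a -log10 q of 5 or more. Leaving out a library gave 3 to 4, 8 to 12, 1 to 3 and 8 to 11 in the same order. The presence rule is easier to meet with fewer libraries, so leaving out a library could add calls but not remove them. The limma calls for GATA2 numbered 3 with all peaks, 2 with narrow peaks, 2 with normal scores and 3 in a fit of 8 libraries. For 9aa-Ins they numbered 1 with all peaks and 2 in a fit of 8, and for 9aa-Ins against GATA2 6 in a fit of 8. Leaving out a library gave 10 to 13, 0 to 2, 0 and 1 to 2. With ranks centered on each chromosome (added after seeing the data) the calls were 13, 1, 0 and 2.

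Leaving out a library moved the deletion difference from -1 to 0.417 at Myb, -0.667 to 0.333 at Myc, 1.92 to 2.58 at Meis1 and -1.25 to -0.750 at Mecom. The GATA2 difference ran from -1.08 to -0.333 at Myc, 1.33 to 3.00 at Meis1 and -0.0833 to 0.917 at Mecom. The 9aa-Ins difference ran from 1.33 to 2.33 at Myb, 0.167 to 1 at Myc, -1.67 to -0.917 at Meis1 and -1.42 to -0.750 at Mecom, and 9aa-Ins against GATA2 from 0.833 to 1.75 at Myc, -4.25 to -2.58 at Meis1 and -1.92 to -0.917 at Mecom. At Myb the deletion difference turned without hi-77+/+ empty replicate 3 (0.333) or hi-77-/- empty replicate 1 (0.417).

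Libraries with the same replicate number did not deviate together in rank (correlations of -0.0301 to 0.104), which cannot show whether they were handled together. At the deleted Gata2 site the 3 hi-77-/- replicates 4, and no other hi-77-/- library, had peaks. Without these 3 (added after seeing the data) the difference at Myb was 12 for GATA2 and -10.0 for 9aa-Ins against GATA2 (exact permutation p = 0.1 for each, the smallest possible), 9aa-Ins changed 3 regions, and the limma calls were 10, 0, 0 and 1. With a replicate block the limma calls were 12, 1, 0 and 3, as without it. A paired sign-flip permutation test cannot go below an exact p of 0.125, which it gave for Myb with GATA2 (12.2), Myb with 9aa-Ins against GATA2 (-10.2) and Meis1 with the deletion (2.25), and this says nothing of their stability.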
